A study of Homo sapiens with 6 samples.

Results

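The genes described here are 9 adhesion G protein-coupled receptors and FLRT3, a membrane protein that binds some of them, in A431 cells with and without Desmoglein-2. They are ADGRL1, ADGRL2, ADGRL3, FLRT3, ADGRE5, ADGRG1, ADGRG6, ADGRF1, ADGRF4 and ADGRB2, which are 10 of the 21462 genes in the count table. They were found by their symbols, and the group was chosen by the p-value of ADGRL1, one of the smallest among genes higher in Dsg2KO cells in these same libraries. The differences of the members between the cell lines are therefore given as a description, without a test. A431 is a human epidermoid carcinoma line used as a model of keratinocytes. The control cells (A431CT) are labelled wild type, the Desmoglein-2 knockout cells (Dsg2KO) were made from A431 by CRISPR/Cas9 editing of DSG2, and RNA from 3 replicates of each was sequenced. Control and knockout lines came from another laboratory, the labels name no treatment, and whether either line is a single clone is not given in the sources used here. In bulk RNA, fewer cells expressing a gene and less RNA of it per cell cannot be told apart.

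Adhesion G protein-coupled receptors carry a long extracellular region, with a domain in which many of them cut themselves, in front of the membrane-spanning part. The extracellular part binds proteins on neighbouring cells or in the matrix, and the stub left at the membrane can activate the receptor from within. The latrophilins (ADGRL1 to ADGRL3) bind teneurins and FLRT proteins across cell contacts, and FLRT3 also binds receptors of the UNC5 family. Several members have known partners on cells or in the matrix: ADGRE5 (CD97) binds CD55, ADGRG1 (GPR56) binds collagen III and transglutaminase 2, and ADGRG6 (GPR126) binds collagen IV.

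The libraries held between 12845719 and 16255692 counts, at which a floor of 3 counts corresponds to 0.184 to 0.236 CPM (counts scaled by the library total and TMM factors). These limits cover counting error only. DSG2 had 330, 320 and 319 CPM in the A431CT libraries and 50.9, 55.2 and 49.7 CPM in the Dsg2KO libraries. Of the 10 keratinocyte markers looked at, 9 were well above the floor, including KRT5 at 630 CPM and EGFR at 8451 CPM in A431CT cells. KRT14 had at most 2 counts in any library. Of 9 markers of other cell types, PTPRC, CD3E, DCN, LUM, COL1A2 and MLANA had no more than 8 counts in any library. PMEL and VWF had mean levels between 1.17 and 3.67 CPM, and PECAM1 was at 4.09 CPM in A431CT and 5.95 CPM in Dsg2KO cells (log2 fold change 0.54, edgeR adjusted p = 0.0466). The part of such cells in the results was not tested. A431CT replicate 2 stood apart in 1 respect, which was noticed in the course of the work. The 166 genes that span at least 500 kb and had a mean level under 1 CPM summed to 162 CPM in this library and to between 28.9 and 57.2 CPM in the others. For the 1780 genes under 1 CPM that span less than 20 kb, the sums were similar in all libraries, between 314 and 347 CPM. ADGRL2 (688 kb) and ADGRL3 (878 kb) are the members long enough for this to matter, and both are given with and without that library.

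**Figure D1:**
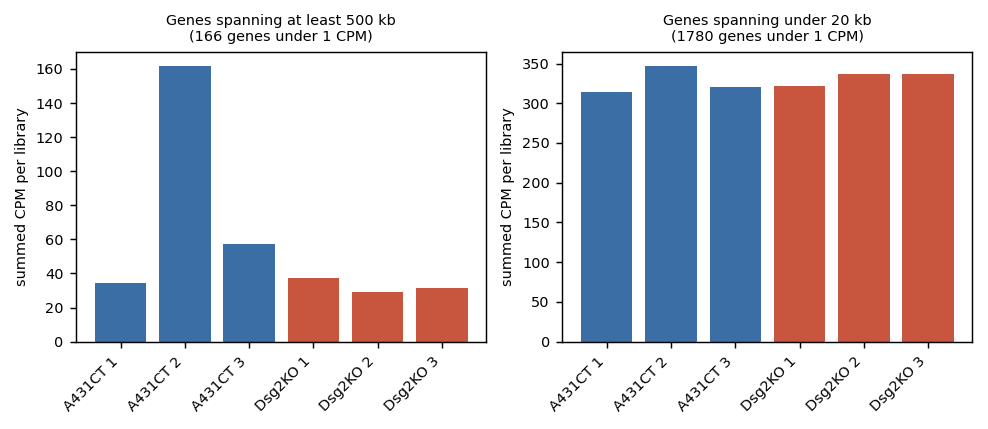
Summed CPM per library (y axis) of weakly expressed genes that span at least 500 kb (left, 166 genes) or under 20 kb (right, 1780 genes), 1 bar per library. A431CT replicate 2 is at 162 CPM on the left against 57.2 CPM or less in the others, while the bars on the right lie between 314 and 347 CPM.

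ADGRL1, ADGRF1 and ADGRB2 were higher in every Dsg2KO library than in any A431CT library, and FLRT3 had counts in Dsg2KO cells only. ADGRE5, ADGRG6 and ADGRF4 were slightly lower in every Dsg2KO library, while ADGRG1, ADGRL2 and ADGRL3 overlapped between the lines. Of the 9 members that passed the filter on low counts (all but FLRT3), 3 passed the thresholds of the study, which are 0.05 for the adjusted p-value and 0.5 for the log2 fold change in either direction. All 3 were higher. Over all 12857 genes tested the share past both thresholds was 6.03%, with 2.99% higher and 3.03% lower, and since the group was chosen by this contrast nothing is read from the members' count. The groups did not overlap for 6 of these 9 members, beside 42.6% of all genes tested. All Dsg2KO libraries were above all A431CT libraries for 3 members, beside 21.2% of all genes tested, and below them for 3, beside 21.4%. The median log2 fold change of the 9 was 0.04, and that of all tested genes was -0.0048.

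**Figure D2:**
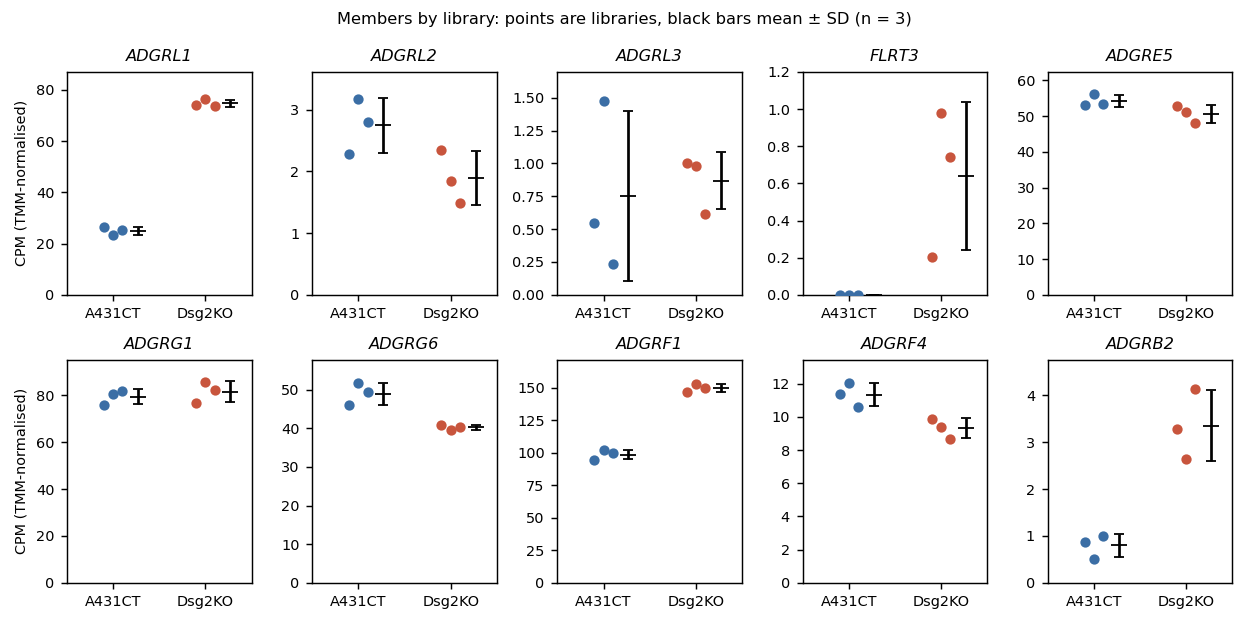
CPM (y axis, linear, from 0) of each member in the 3 A431CT (blue) and 3 Dsg2KO (red) libraries. Points are libraries and black bars give the mean ± SD. ADGRL1 lies at 23.4 to 26.3 CPM in A431CT and 73.8 to 76.5 CPM in Dsg2KO cells, and FLRT3 is at 0 in every A431CT library.

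Of the latrophilins, ADGRL1 was the one whose libraries did not overlap between the lines. This receptor lies on the minus strand of chromosome 19 of GRCh38, from 14147743 to 14206187. It had 335, 318 and 325 counts in the A431CT libraries against 1104, 1250 and 1193 in those of Dsg2KO, which were 26.3, 23.4 and 25.2 CPM against 74.1, 76.5 and 73.8 CPM. The lines were far apart and the replicates of each close together. The mean was 25.0 ± 1.46 CPM (SD, n = 3) in A431CT and 74.8 ± 1.48 CPM (SD, n = 3) in Dsg2KO cells, a 2.99-fold higher level, and the log2 fold change was 1.58 (standard error 0.06). An annotated antisense RNA, ADGRL1-AS1, shares 473 exonic bases with it, and without strand information reads from both cannot be told apart. None of the 50 tested genes nearest to ADGRL1 on the chromosome had as high a log2 fold change. Since ADGRL1 was chosen by this contrast, nothing is read from that rank. The median of these neighbours was -0.0020, and they ranged from -0.61 to 1.14. Of the 50, 2 were called higher, NFIX at 0.95 and MISP3 at 1.14, and 1 lower. Over all genes tested these shares were 2.99% and 3.03%.

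ADGRL2 and ADGRL3, the paralogs of ADGRL1, had few reads. ADGRL2, on chromosome 1 from 81306147 to 81993932, had 2.28, 3.17 and 2.79 CPM in A431CT against 2.35, 1.84 and 1.48 CPM in Dsg2KO cells. The highest Dsg2KO library lay above the lowest A431CT library. Its log2 fold change was -0.55 (standard error 0.28), and without A431CT replicate 2 it was -0.43. The 50 tested genes around it had a median of -0.17 on this scale, and 39 of them were below 0. ADGRL3, on chromosome 4 from 61200326 to 62078335, had 7, 20 and 3 counts in the A431CT libraries against 15, 16 and 10 in those of Dsg2KO. The A431CT libraries alone spanned the whole range of the Dsg2KO libraries. The direction of its difference depended on single libraries, and the log2 fold change was 0.18 (standard error 0.53) over all libraries, 1.13 without A431CT replicate 2 and -0.24 without A431CT replicate 3. The part that A431CT replicate 2's excess over long genes has in the ADGRL2 and ADGRL3 values was not tested beyond leaving that library out.

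Put on a scale per exonic length, ADGRL1 made up most of the latrophilin message in both lines. Counts were divided by the length of the union of annotated exons and scaled to the same sum (TPM) in each library, which lets genes be compared. On this scale the 3 latrophilins summed to 14.1 ± 0.527 (SD, n = 3) in A431CT and 42.0 ± 0.496 (SD, n = 3) in Dsg2KO cells. ADGRL1 held 95.9%, 92.3% and 95.8% of this sum in the A431CT libraries and 98.1%, 98.5% and 98.8% in the Dsg2KO libraries. The share of ADGRL2 was 3.67% ± 0.734 in A431CT and 0.873% ± 0.201 in Dsg2KO cells, of a sum that was larger in Dsg2KO cells. The level of ADGRL2 itself was 0.516 ± 0.0847 in A431CT and 0.366 ± 0.0831 in Dsg2KO cells, with overlapping libraries. With the length of the longest transcript in place of the union, the mean share of ADGRL1 was 89.6% in A431CT and 97.2% in Dsg2KO cells. That of ADGRL2 was then 8.86% in A431CT and 2.20% in Dsg2KO cells.

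The order of the members by this per-length level differed between the lines mainly through ADGRL1 and ADGRF1. In A431CT cells ADGRE5 stood highest at 45.8 ± 1.49 (SD, n = 3), followed by ADGRG1 at 40.0 ± 1.77 and ADGRF1 at 36.2 ± 1.45. The libraries of these neighbours did not overlap. ADGRG6 (26.3 ± 1.59), ADGRF4 (15.2 ± 0.898) and ADGRL1 (13.4 ± 0.766) came next, also without overlap between neighbours. ADGRL2, ADGRB2, ADGRL3 and FLRT3 were all under 0.6 TPM in every A431CT library, and here ADGRL2 overlapped ADGRB2 and ADGRB2 overlapped ADGRL3. In Dsg2KO cells ADGRF1 was highest at 56.8 ± 1.02, and ADGRE5 (44.1 ± 1.88), ADGRG1 (42.4 ± 2.24) and ADGRL1 (41.3 ± 0.498) followed with overlapping libraries. With the longest transcript as the length ADGRG1 was the highest in both lines, at 60.0 TPM in A431CT and 63.7 TPM in Dsg2KO cells. ADGRL1 was then at 31.7 TPM in Dsg2KO cells, below ADGRF1 (54.6 TPM) and ADGRE5 (52.8 TPM) without overlap. Its overlap with ADGRE5 and ADGRG1 thus depended on the length used.

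**Figure D3:**
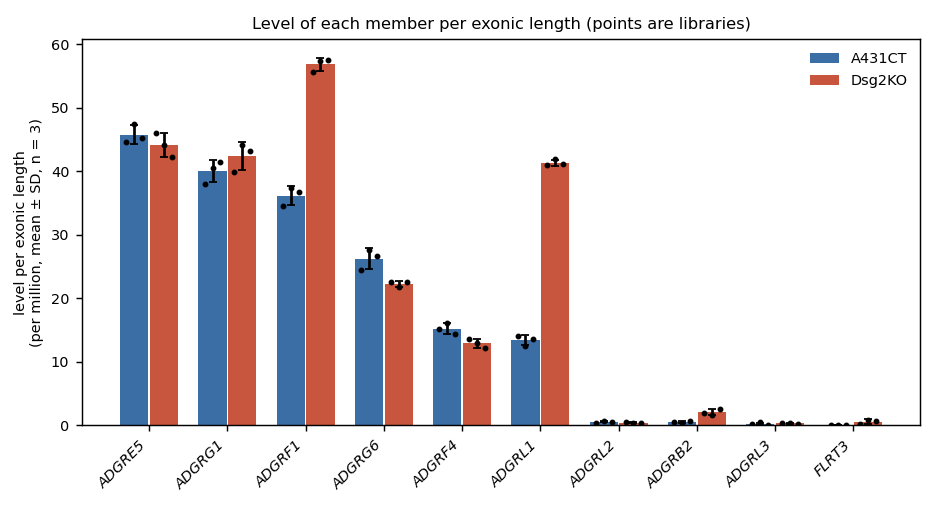
Level per exonic length (y axis, TPM) of each member in A431CT (blue) and Dsg2KO (red) cells. Bars are means, error bars SD (n = 3) and points libraries, ordered by the A431CT level. ADGRL1 moves from 13.4 to 41.3 and ADGRF1 from 36.2 to 56.8, while ADGRL2, ADGRL3 and FLRT3 stay under 1 in both lines.

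FLRT3, a leucine-rich repeat protein that binds latrophilins and UNC5 receptors, had 0, 0 and 0 counts in the A431CT libraries and 3, 16 and 12 counts in the Dsg2KO libraries. Dsg2KO replicate 1 was thus at the floor of 3 counts and the other 2 Dsg2KO libraries were above it. The mean in Dsg2KO cells was 0.641 ± 0.398 CPM (SD, n = 3), or 2.79 times the mean A431CT floor of 0.230 CPM. The fold over the A431CT level, which was below that floor, was thus at least 2.79. Dsg2KO replicate 1, at 0.201 CPM, was itself under that floor. The gene lies on the minus strand of chromosome 20 from 14322985 to 14337614, inside an intron of MACROD2, which is on the opposite strand. MACROD2 had 3, 32 and 3 counts in the A431CT libraries against 132, 163 and 174 in those of Dsg2KO. It rose from 0.943 ± 1.23 to 9.86 ± 0.955 CPM (SD, n = 3), or 3.34 ± 0.43 (SE) as log2 fold change (edgeR's quasi-likelihood test, adjusted p = 4.17e-05), in 3 of 3 Dsg2KO libraries. Without A431CT replicate 2 its log2 fold change was 5.35. The 50 tested genes around FLRT3 had a median log2 fold change of -0.015. Besides MACROD2, NDUFAF5 was called higher among them, at 0.55. MACROD2 and NDUFAF5 were named after their values were seen. Whether counting used strand is not given in the sources used here, so reads from FLRT3 and from the MACROD2 intron around it cannot be told apart.

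ADGRF1 and ADGRF4 lie 644 kb apart on chromosome 6 and differed in opposite directions. ADGRF1 (GPR110), from 46997708 to 47042350, had 94.5, 102 and 99.6 CPM in A431CT against 147, 153 and 150 CPM in Dsg2KO cells. The lowest Dsg2KO library was well above the highest A431CT library. The means were 98.6 ± 3.71 and 150.0 ± 2.93 CPM (SD, n = 3), and the log2 fold change was 0.60 (standard error 0.04). None of its 50 neighbouring tested genes had a higher one, and their median was -0.0075. ADGRF4 (GPR115), from 47685864 to 47722021, had 11.4, 12.0 and 10.6 CPM in A431CT and 9.86, 9.42 and 8.66 CPM in Dsg2KO cells. The groups did not overlap, but the gap between them was smaller than the range within either. Its log2 fold change was -0.29 (standard error 0.12).

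ADGRB2 (BAI2), a receptor of the brain angiogenesis inhibitor group, had the highest log2 fold change of the tested members from a very low level. It lies on chromosome 1 from 31727117 to 31764893. It had 11, 7 and 13 counts in A431CT against 49, 43 and 67 in Dsg2KO cells, or 0.865, 0.516 and 1.01 CPM against 3.29, 2.63 and 4.14 CPM. Each Dsg2KO library was above every A431CT library. The log2 fold change was 2.07 (standard error 0.33), with a mean level 4.21-fold higher, and it lay between 1.83 and 2.27 with each library left out in turn. The genes around it were lower in Dsg2KO cells: 45 of its 50 nearest tested genes had a log2 fold change below 0, with a median of -0.33, and none was as high as ADGRB2.

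**Figure D4:**
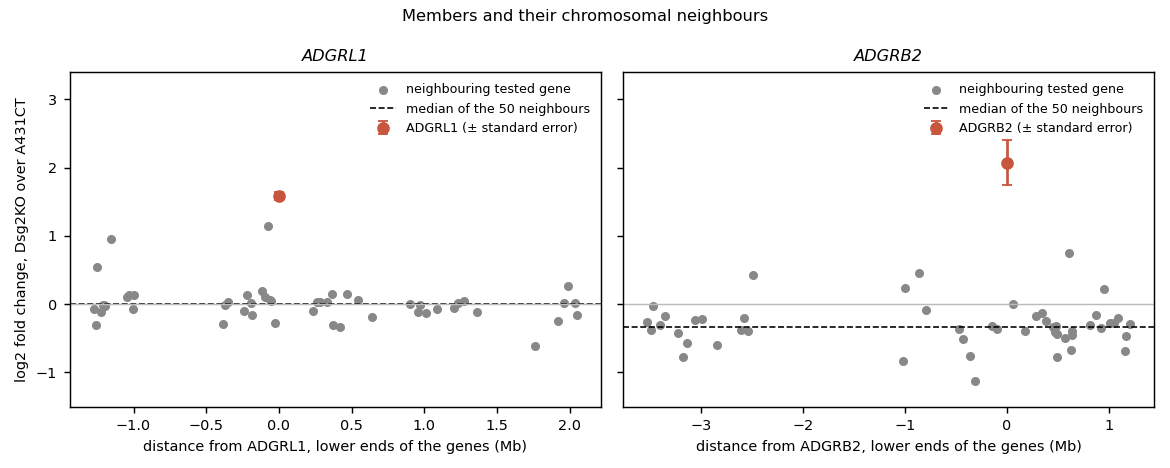
log2 fold change of Dsg2KO over A431CT cells (y axis) for ADGRL1 (left) and ADGRB2 (right, both red with the standard error) and the 50 tested genes nearest to each (grey), against the distance along the chromosome in Mb. The dashed line is the median of the neighbours, -0.0020 around ADGRL1 and -0.33 around ADGRB2, and both members lie above all their neighbours. ADGRL1 was chosen by this contrast, so nothing is read from its rank.

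ADGRE5, ADGRG1 and ADGRG6 had smaller differences, with log2 fold changes between -0.29 and 0.04. ADGRE5, the CD55 receptor, lies 174 kb from ADGRL1 on chromosome 19, from 14380501 to 14408725. It had 53.1, 56.3 and 53.3 CPM in A431CT and 52.8, 51.1 and 48.0 CPM in Dsg2KO cells. The highest Dsg2KO library was only just below the lowest A431CT library, and the log2 fold change was -0.10 (standard error 0.06). ADGRG1, on chromosome 16 from 57610652 to 57665580, had 75.8, 80.5 and 81.9 CPM against 76.7, 85.6 and 82.1 CPM. These libraries overlapped, and the log2 fold change was 0.04 (standard error 0.05). ADGRG6, on chromosome 6 from 142301854 to 142446266, had 45.9, 51.6 and 49.4 CPM in A431CT and 40.7, 39.6 and 40.3 CPM in Dsg2KO cells. All its Dsg2KO libraries were lower, and the log2 fold change was -0.29 (standard error 0.06). Of the 50 tested genes around ADGRG6, 44 had a log2 fold change below 0, with a median of -0.18.

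Sequence upstream of the start was available from RefSeq (GRCh38.p14) for 8 of the 10 members, with 18 windows among them. It was not available for ADGRL1 or ADGRE5. The 250 bases before the start are shown for the members with all Dsg2KO libraries above the A431CT libraries, to show their base composition, in which the ADGRB2 window differs from those of ADGRF1 and FLRT3. All are on the minus strand and written 5′ to 3′, with the ADGRB2 window at chr1:31764341-31764590, the ADGRF1 window at chr6:47042333-47042582 and the FLRT3 window at chr20:14337613-14337862. Capitals mark a GC box (GGGCGG on either strand).
ADGRB2: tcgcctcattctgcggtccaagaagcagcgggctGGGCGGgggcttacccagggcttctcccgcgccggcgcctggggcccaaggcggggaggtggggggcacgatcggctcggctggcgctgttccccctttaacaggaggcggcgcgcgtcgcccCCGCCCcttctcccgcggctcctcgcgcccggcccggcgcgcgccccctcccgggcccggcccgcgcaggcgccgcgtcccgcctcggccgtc
ADGRF1: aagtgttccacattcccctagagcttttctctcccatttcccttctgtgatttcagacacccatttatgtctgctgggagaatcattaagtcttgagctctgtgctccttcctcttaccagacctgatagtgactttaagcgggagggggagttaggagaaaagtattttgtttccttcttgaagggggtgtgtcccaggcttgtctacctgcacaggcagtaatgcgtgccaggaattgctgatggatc
FLRT3: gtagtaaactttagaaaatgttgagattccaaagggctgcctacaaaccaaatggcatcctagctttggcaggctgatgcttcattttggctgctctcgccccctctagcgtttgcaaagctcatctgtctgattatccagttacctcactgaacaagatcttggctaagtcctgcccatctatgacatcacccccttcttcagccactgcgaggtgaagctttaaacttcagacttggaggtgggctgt

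The ADGRB2 window was rich in G and C (79.6%), and the ADGRF1 and FLRT3 windows were at 47.6% each, where the median of 35116 windows of the same length was 58.0%. The observed over expected CpG ratio was 0.965 for ADGRB2, 0.141 for ADGRF1 and 0.214 for FLRT3, beside a median of 0.558. Besides the GC box, the NF-κB consensus, AP-1 (TGANTCA), the cAMP response element (TGACGTCA), the TATA box (TATAAA) and the interferon-stimulated response element were searched on both strands, and a GC box can overlap an NF-κB match. The ADGRB2 window held 2 GC boxes, which 42.6% of all windows hold at least once. The ADGRF1 and FLRT3 windows held none of these motifs, which says only that these letters are not in these windows. NF-κB matches were in 9.96% of all windows and, among the members, in windows of ADGRL2 and ADGRL3. AP-1 matches were in 6.57% of all windows and, among the members, in 1 window each of ADGRF4 and ADGRG1.

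The called genes for proteins that bind latrophilins or FLRT3 differed in RNA level in opposite directions. Of 15 genes listed as latrophilin ligands or FLRT partners, 5 had enough counts to be tested, of which 1 was called higher and 1 lower. Over all genes tested, 2.99% were called higher and 3.03% lower. TENM2, which encodes teneurin-2, a latrophilin ligand, had 550, 572 and 646 counts in the A431CT libraries against 262, 274 and 304 in those of Dsg2KO, so that no library of one line reached the other. It fell from 45.2 ± 4.29 to 17.7 ± 1.02 CPM (SD, n = 3), or -1.35 ± 0.08 (SE) as log2 fold change (edgeR's quasi-likelihood test, adjusted p = 3.47e-08), in 3 of 3 Dsg2KO libraries. The 50 tested genes around it were centred on a log2 fold change of -0.02 (median). UNC5B, a netrin receptor that FLRT3 can bind, had 19, 19 and 20 counts in A431CT and 56, 43 and 49 counts in Dsg2KO cells, again without overlap. It rose from 1.48 ± 0.0756 to 3.14 ± 0.572 CPM, with a log2 difference of 1.08 ± 0.27 (SE, edgeR adjusted p = 0.0072), in 3 of 3 libraries. Both were also called with each library left out in turn. UNC5D, at 79.9 CPM in A431CT and 78.8 CPM in Dsg2KO cells, had a log2 fold change of -0.02 (edgeR adjusted p = 0.80).

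The other ligands of the latrophilins were near the floor. TENM1 had at most 7 counts in any library and FLRT2 at most 2. TENM3 had 6, 11 and 3 counts in A431CT and 3, 1 and 2 in Dsg2KO cells. TENM4 had 0, 20 and 3 counts in A431CT and 8, 1 and 3 in Dsg2KO cells, with A431CT replicate 2 again the highest. FLRT1 was not analysed here. The median log2 fold change of the 5 tested genes of this list was -0.02, beside -0.0048 over all tested genes.

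Among ligands and membrane partners of the other members, CD55 and TGM2 rose, while their receptors ADGRE5 and ADGRG1 had log2 fold changes of -0.10 and 0.04. Of 18 genes in this list 13 were tested, 2 were called higher and 0 lower. Of all genes tested, 2.99% were called higher and 3.03% lower. CD55, a complement regulator bound by ADGRE5, had 19.7, 19.2 and 22.7 CPM in A431CT and 32.3, 31.1 and 31.5 CPM in Dsg2KO cells. The Dsg2KO libraries were all above the A431CT libraries, with a log2 difference of 0.62 ± 0.08 (SE, edgeR adjusted p = 3.61e-05) and a median of 0.15 over its 50 neighbouring tested genes. TGM2, the transglutaminase bound by ADGRG1, had 51.6, 52.7 and 47.4 CPM against 128, 124 and 138 CPM. It too was higher in 3 of 3 Dsg2KO libraries, with a log2 difference of 1.36 ± 0.06 (SE, edgeR adjusted p = 4.63e-10), against a median of -0.18 over its 50 neighbours. COL3A1, the collagen ligand of ADGRG1, had at most 9 counts in any library and was not tested.

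Of the collagen IV genes, whose products bind ADGRG6, COL4A1, COL4A2 and COL4A5 passed the adjusted p-value but not the fold change minimum. COL4A1 and COL4A2 both had a log2 fold change of 0.30 (adjusted p = 2.34e-04 and 1.11e-04, edgeR), and COL4A5 was at 0.27 (edgeR adjusted p = 0.0253). LAMA2, a laminin chain that ADGRG6 binds, was at -0.30 (edgeR adjusted p = 0.0363), and PRNP, the prion protein, was at 0.19 (edgeR adjusted p = 0.0010). The tetraspanins CD9 and CD81, which associate with ADGRG1, were at -0.08 and -0.02 and did not pass the adjusted p-value. COL4A6 was past the fold change minimum at 0.58 but not the adjusted p-value (edgeR adjusted p = 0.0607), and COL4A3 and COL4A4 were not tested. By the adjusted p-value alone 6 of the 13 tested genes of this list were higher and 2 lower. Of all genes tested, 14.3% were higher and 15.3% lower by that threshold, 29.6% together. The median log2 fold change of its 13 tested genes was 0.27, beside -0.0048 over all tested genes.

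The rest of the adhesion receptor family held no gene past both thresholds, which 6.03% of all genes tested passed. With 12 receptors tested, nothing is read from this count. Of the 23 other receptors 12 were tested with edgeR, 4 of them had an unadjusted p-value under 0.05, and 0 were called by edgeR or by DESeq2. Over all genes tested, the share with an unadjusted p-value under 0.05 was 39.5%. By the adjusted p-value alone 3 of the 12 passed, beside 29.6% of all genes tested, and all 3 were higher: CELSR2 at a log2 fold change of 0.45 (edgeR adjusted p = 4.00e-06), CELSR1 at 0.21 and ADGRE3 at 0.15. CELSR1 and CELSR2 are cadherin-type receptors of planar cell polarity. All their Dsg2KO libraries were above the A431CT libraries, as was so for 21.2% of all genes tested. CELSR3, of the same type, had overlapping libraries and a log2 fold change of 0.06 (edgeR adjusted p = 0.84). ADGRD1 had the lowest log2 fold change of the 12, at -0.79 (edgeR adjusted p = 0.0612), and its Dsg2KO libraries were all below the A431CT libraries. The count for ADGRE3, a receptor known from myeloid cells, was between 3051 and 4523 per library. The annotation places ITGB1P1, a processed pseudogene, within ADGRE3 on the same strand, ITGB1 was at 523 CPM in A431CT cells, and the part of reads from that copy in the ADGRE3 count was not tested. The median log2 fold change of the 12 tested receptors was 0.0081.

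**Figure D5:**
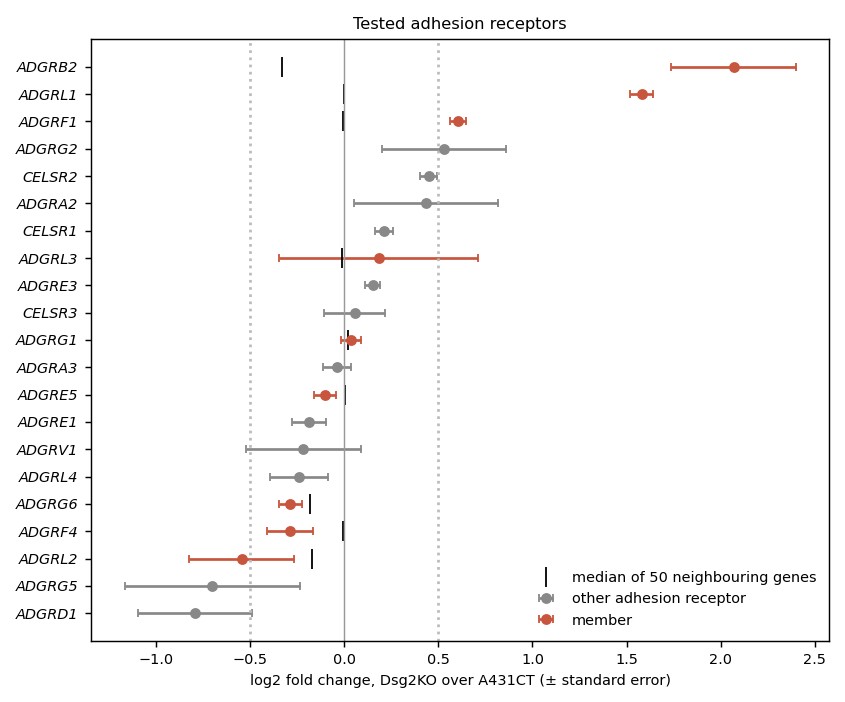
log2 fold change of Dsg2KO over A431CT cells (x axis, ± standard error) for the 9 tested members (red) and the 12 other tested adhesion receptors (grey), in order of size. Black ticks give the median of the 50 neighbouring genes of each member, and dotted lines the fold change minimum of 0.5. ADGRB2, ADGRL1 and ADGRF1 are highest, and ADGRD1, at -0.79, is lowest.

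Adhesion receptors signal through heterotrimeric G proteins, and of the genes for 12 alpha subunits 11 were tested and 1, GNAZ, was called higher, beside 2.99% of all genes tested. By the adjusted p-value alone 2 alpha subunit genes were higher and 3 lower, beside 14.3% and 15.3% of all genes tested. This count was made after values were seen. GNAZ encodes the alpha subunit of a G protein of the inhibitory class. It had 8, 16 and 24 counts in the A431CT libraries against 108, 102 and 102 in those of Dsg2KO, without overlap. It rose from 1.22 ± 0.617 to 6.60 ± 0.563 CPM (SD, n = 3), a log2 difference of 2.42 ± 0.28 (SE, edgeR adjusted p = 1.61e-05), in 3 of 3 Dsg2KO libraries. Its 50 neighbouring tested genes had a median of 0.08, and 16 of them were below 0. Of these neighbours 4 were called higher, among them SUSD2 at 2.00, and 0 lower. Over all genes tested the shares were 2.99% and 3.03%. Of the other inhibitory alpha subunits, which were far more abundant, GNAI1 was at -0.30 (edgeR adjusted p = 0.0025), GNAI2 at -0.17 (edgeR adjusted p = 0.0059) and GNAI3 at 0.14 (edgeR adjusted p = 0.0140). GNAS, the stimulatory alpha subunit, had a log2 fold change of -0.44 (edgeR adjusted p = 1.04e-04). GNA12 and GNA13, alpha subunits to which several adhesion receptors couple, were at -0.10 (edgeR adjusted p = 0.18) and -0.04 (edgeR adjusted p = 0.60).

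The genes with the pattern most like ADGRL1 over the 6 libraries were DUSP4, CCND2 and ABO. Likeness was the root mean square difference of log2 CPM after each gene was centred on its own mean, taken over 10866 tested genes with a mean of at least 5 CPM. It was 0.13 for DUSP4, 0.13 for CCND2 and 0.14 for ABO, on the log2 scale. Their log2 fold changes were 1.54, 1.69 and 1.54, near the 1.58 of ADGRL1. Since ADGRL1 was chosen by this contrast and its replicates lay close together, such likeness follows largely from a similar fold change. Shared regulation was not tested. For FLRT3, whose counts were low, the nearest genes MX2, CCND2 and SUSD2 were farther away, at 0.55, 0.56 and 0.57.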

How the data were processed

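PolyA RNA of A431CT and Dsg2KO cells was sequenced in 3 replicates per line. In CLC Genomics Workbench version 23 the authors removed adapters and poor reads, mapped read pairs to GRCh38/hg38 and summed them by gene, and the deposited counts are whole numbers without normalization. The annotation and the strand setting are not given in the sources used here. Library totals were 12845719 to 16255692 counts. In R 4.3.3, edgeR 4.0.16 was used with TMM factors, filterByExpr (minimum count 10, minimum total 15), quasi-likelihood F tests without covariates and Benjamini-Hochberg adjustment over 12857 genes. Genes were called at 0.05 for the adjusted p-value and 0.5 for the log2 fold change in either direction, as in the methods of the study. CPM used TMM factors. The fit was tested on simulated counts. Standard errors were derived from the F statistic. Nothing in the labels says that replicates came from separate cultures, while the methods speak of biological replicates for all experiments, so p-values measure the spread between these samples. Replicates differed by more than counting error.

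The members and gene lists were chosen with earlier results of these data known. Named were all members, DSG2, called genes of the lists, the ligands of the members, and the genes most like ADGRL1 and FLRT3 (log2 CPM with a prior count of 2). Keratinocyte and other cell type markers were also listed. MACROD2, NDUFAF5, NFIX, MISP3, ITGB1, ITGB1P1 and other list genes that were not called were chosen after values were seen. So were the grouping of genes by span and the count over alpha subunits. Positions, lengths and overlaps came from GENCODE version 44, which placed 19478 of 21462 symbols. The 50 tested genes nearest to a gene, 25 on each side, gave neighbourhood medians. Alternatives were RLE factors, total counts, no or a stricter count filter, DESeq2 1.42.0, a replicate block, other fold change minima, another gene length and each library left out. The counts of 1 further gene list are not reported here. Figures used Python 3.11.15 and matplotlib 3.10.9.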

Additional observations from a re-analysis of the deposited data

How the results depend on the processing

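Over all genes 775 passed both thresholds, 3802 without a fold change minimum and 250 with a minimum of 1, as follows from the minimum itself. From 686 to 795 passed with 1 library left out. Among the other adhesion receptors the 0 called became 3 without a fold change minimum and 1 with at least 10 counts in every library (ADGRD1), and 0 to 1 with 1 library left out (ADGRG5 without Dsg2KO replicate 2). Among partners of the other members the 2 called became 8 without a fold change minimum and 1 with a minimum of 1, and 2 to 3 with 1 library left out (COL4A6 without A431CT replicate 2). GNAZ was not tested with at least 10 counts in every library, and GNAS passed both thresholds without Dsg2KO replicate 2. The log2 fold change of ADGRL3 ranged from -0.24 to 1.13 with 1 library left out. The ADGRL1 share of the latrophilin level moved to 89.6% in A431CT and 97.2% in Dsg2KO cells with the longest transcript as the length, and lay between 94.0% and 95.9% and between 98.3% and 98.6% with 1 library left out. Of the 163 alternative values 153 stayed within the limits set for a change (a count within 1.5 times, another value within 1 SD of the replicates). The replicate numbers did not pair the libraries: residual correlations were between -0.0027 and 0.0539, and 2 of 6 libraries correlated best with their own number. With a replicate block as a factor 769 genes passed, and ADGRL1 was at 1.58. DESeq2 gave 652 genes past both thresholds. FLRT3 passed the count filter only when the filter was dropped or in some fits with 1 library left out, and its fitted fold changes there are not bounds.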
